A study of Rattus norvegicus with 8 samples.

Results

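The heme synthesis enzymes and the mitochondrial carriers that work with them were followed in the blood of male Wistar rats, as 9 genes: Alas2, Alad, Uros, Urod, Cpox, Ppox and Fech for the enzymes, and Slc25a37 and Abcb10 for the carriers. The members are all probe sets that the platform annotation gives to exactly 1 of these symbols, which made 11 of the 31042 probe sets tested, or 9 of 14217 named genes. Uros and Abcb10 each had 2 probe sets and the other genes 1 each. RNA of whole blood was measured on Affymetrix rat GeneChips, 4 for either of the 2 diets. The rats were bought at 7 weeks of age and, after acclimation on normal chow, fed for 8 weeks. One diet was a high-fat diet (Quick fat), and the other the same high-fat diet with 1% mulberry leaf powder. Blood was taken on day 56 after an overnight fast, so high-fat feeding and fasting are shared by all arrays. Each diet group held 10 rats. Sample titles number the 4 arrays as biological replicates. Whether an array holds 1 rat or several is not stated, and the p-values speak only of variation among these arrays, which may be partly technical. Rats on a normal diet were also kept in the study and were not analysed here.

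Heme is built in a chain of steps that starts and ends in the mitochondrion and passes through the cytosol between. In developing red cells the erythroid enzyme ALAS2 starts the chain and ferrochelatase ends it by placing iron into protoporphyrin. Mitoferrin 1, the product of Slc25a37, brings that iron across the inner mitochondrial membrane, where the transporter ABCB10 stabilises it. Mature red cells make no new RNA, and the erythroid RNA of whole blood comes largely from young red cells, the reticulocytes. In such a sample, fewer cells of a type and less RNA per cell cannot be told apart.

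The deposited values ran from 5.17 to 15.26 on the log2 scale, and a probe set hardly varied between arrays: the median SD over the 8 arrays was 5.31e-06. Array values and differences are therefore given in SD units, in which each probe set has a mean of 0 and an SD of 1 over the 8 arrays. A difference is mulberry minus high-fat in these units, and with 4 arrays against 4 it cannot exceed 1.87 in size. Where an array was left out or the values were normalized or centred anew, the unit is the SD of the values then fitted. Sizes from such fits are not in the same unit as the main ones, and only their signs compare directly. A difference is not a fold change, and its size cannot be set against that of an ordinary microarray study. Hemoglobin beta (Hbb) stood at a log2 level of 15.09 and the hemoglobin chaperone Ahsp at 11.12, while the 2 probe sets of the liver gene Alb stood at 6.07 and 6.53. Scores of 17 red cell marker genes, the members left out, lay between -0.847 and 0.944 on the high-fat arrays and between -0.36 and 0.49 on the mulberry arrays (exact permutation p = 0.914). High-fat replicate 4 stood apart on natural killer markers (2.1 against -0.319 to 0.0301 on the other high-fat arrays) and was lowest on platelet markers (-1.45). Some markers of other blood cells leaned to one side on the deposited scale. Of the natural killer, B cell and platelet probe sets 0 passed after adjustment in limma. An unadjusted p under 0.05 was found for 0, 0 and 1 of them. Over all probe sets 47.3% had a lower and 52.7% a higher mean with mulberry. All 13 natural killer probe sets had a lower mean with mulberry (median difference -0.886), as did 12 after quantile normalization and 11 after median centring. Of 14 B cell probe sets 12 had a lower mean, and 9 after quantile normalization. After median centring 5 of them had a lower mean, against 3.07% of all probe sets, and 13 lay below the median of all. Of 11 monocyte probe sets 8 had a lower and 3 a higher mean, and 8 had a lower one after quantile normalization. All 14 platelet probe sets had a higher mean (median 0.686), as did 7 after quantile normalization, against 28.2% of all. After median centring 8 of the 14 lay below the median of all probe sets. Beyond the values given here, their part in the members' values was not tested. The hybridization controls, bacterial transcripts added with the labelled sample, ranged from -1.44 to 0.439 on the high-fat and from -0.236 to 1.3 on the mulberry arrays (exact permutation p = 0.114). The gap between the 3' and 5' probe sets of an array control transcript, a sign of RNA integrity, differed by -0.275 SD units for beta-actin and 0.749 for GAPDH.

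No member passed the threshold between the diets: 0 of 11 probe sets had a Benjamini-Hochberg adjusted p under 0.05 in limma, as did 0 of the 31042 tested (0%). At an unadjusted p under 0.05 stood 1 of the 11, a probe set of Abcb10, against 4.36% of all probe sets. The arrays of the 2 diets overlapped for all 11, while they did not overlap for 2.52% of all probe sets. Lower means under mulberry were found for 7 of the 11, against 47.3% of all probe sets, and the median difference was -0.166 SD units against 0.0559 over all. After each array was centred on its median, 3 of the 11 had a lower mean, against 3.07% of all probe sets, and the median turned to 0.547. That centring moved the median of all probe sets to 1.15, and the median member then lay below that. Leaving out high-fat replicate 1 gave 4 of 11, against 48.1% of all probe sets.

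Split by role, the enzymes and the carriers leaned to opposite sides on the deposited scale, a split chosen after the values were seen. Of the 8 enzyme probe sets 7 had a lower mean with mulberry (median difference -0.49), against 47.3% of all. After median centring it was 3 of 8 against 3.07% of all, and 6 of the 8 then lay below the median of all probe sets. After quantile normalization it was 3 of 8 against 44.6% of all. That normalization left the differences of Alas2, Alad, Urod and Fech at 0. Of the 3 carrier probe sets all 3 had a higher mean (median 0.674, against 52.7% higher over all probe sets). After quantile normalization it was 1 of 3, against 28.2% of all. Adjusting for the hybridization controls, 3 of the 8 enzyme probe sets had a lower mean, against 50.9% of all. Without high-fat replicate 1 the number was 4 of 8, against 48.1% of all. Among probe sets brighter than the median it was 4 of 5, against 50.7% of all such probe sets. Adjusting for the polyA controls, bacterial transcripts added before labelling, 1 of the 3 carrier probe sets had a higher mean, and 48.4% of all probe sets a lower one. Beyond that adjustment, the part of these controls in the counts was not tested.

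**Figure D1:**
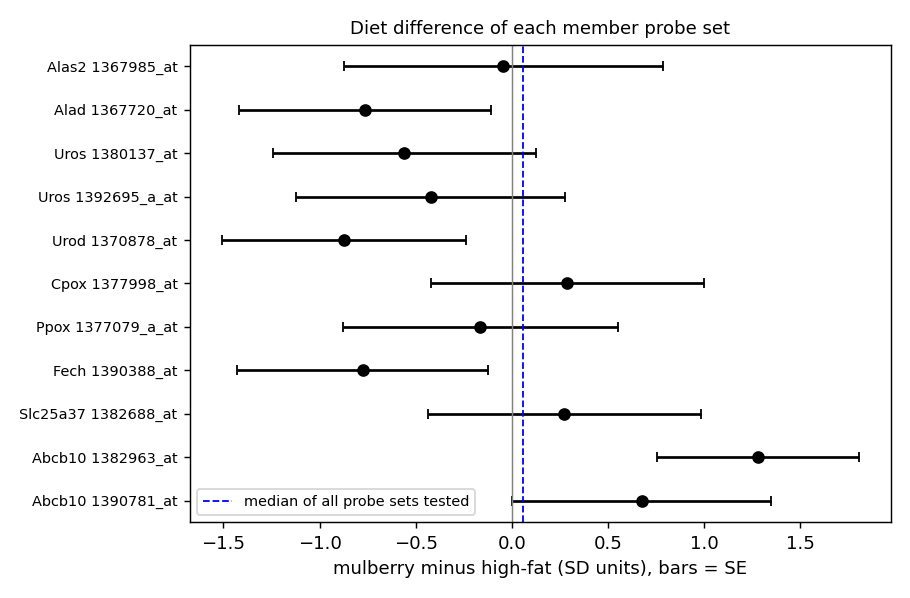
Mulberry minus high-fat difference of each of the 11 member probe sets in SD units (x axis), with bars of 1 SE from limma (4 arrays per diet) and a dashed line at the median of all probe sets tested, 0.0559. Differences run from -0.872 (Urod) to 1.28 (an Abcb10 probe set), and none passed the threshold. On the deposited scale shown here most enzymes lie left of 0 and the carriers right of it. Median centring moves the median of all probe sets to 1.15. Alad (0.322), Ppox (0.242) and Fech (0.547) then lie right of 0 and below that median, and Alas2 (1.17) lies close to it. The array medians subtracted varied far more than Alas2 did, so its centred value follows them.

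Alas2 encodes 5-aminolevulinate synthase of the erythroid lineage, the first and rate-limiting enzyme of heme synthesis in red cells. Its probe set, 1367985_at, had a log2 level of 13.85 on every array and an SD of only 1.62e-06. The high-fat arrays read 0.436, 0.491, 0.726 and -1.56 in SD units for replicates 1 to 4. The mulberry arrays read 1.59, -0.73, -0.261 and -0.687. High-fat replicate 4 was the lowest of all and mulberry replicate 1 the highest, so each diet held an extreme and the groups overlapped. The difference was -0.0447 ± 0.828 (SE, limma adjusted p = 1, exact permutation p = 0.943). Leaving out each array in turn gave values from -0.703 to 0.185, on both sides of 0. After median centring Alas2 was at 1.17, close to the median of 1.15 over all probe sets. The array medians subtracted ran from 6.56723 to 6.56732, far wider than the SD of Alas2. The centred value therefore follows those medians and says nothing of Alas2 itself. Alas1, the form of the enzyme used in other tissues, had a level of 7.03 and a difference of -0.00487 ± 0.722.

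Alad encodes the cytosolic enzyme that joins aminolevulinate into porphobilinogen, and Urod encodes uroporphyrinogen decarboxylase, which turns uroporphyrinogen into coproporphyrinogen. Alad (1367720_at, log2 level 7.37) read 0.529, -0.404, 0.654 and 0.753 on the high-fat arrays. It read -1.43, -1.03, -0.545 and 1.47 on the mulberry arrays. Of the mulberry arrays, replicates 1, 2 and 3 lay below every high-fat array, and replicate 4 lay above all of them. Urod (1370878_at, level 9.81) read 0.815, -0.00576, 0.933 and 0.00202 on the high-fat arrays. It read -1.07, -1.3, -0.791 and 1.42 with mulberry. The order was much the same: 3 mulberry arrays at the bottom and replicate 4 at the top.

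The mean differences were -0.766 ± 0.655 for Alad (limma adjusted p = 1, exact permutation p = 0.314) and -0.872 ± 0.635 for Urod (adjusted p = 1, exact permutation p = 0.229). Without mulberry replicate 4 they were -1.59 and -1.68, in units of the smaller set of arrays left, and neither passed the threshold over all probe sets. Adjusting for the hybridization controls, the Alad difference turned to 0.322 and that of Urod was -0.0907. The controls ran against both genes over the 8 arrays (r = -0.783 for Alad, rho = -0.833, permutation p = 0.0229 and 0.0154, and r = -0.674 for Urod, rho = -0.786, permutation p = 0.0695 and 0.0279). Among 45 relations of members to scores, neither passed after adjustment (adjusted p = 0.343 and 0.49 for r, and 0.314 for both rho). Without high-fat replicates 1 and 4, whose control values lay farthest from the median, r was -0.947 and -0.885.

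**Figure D2:**
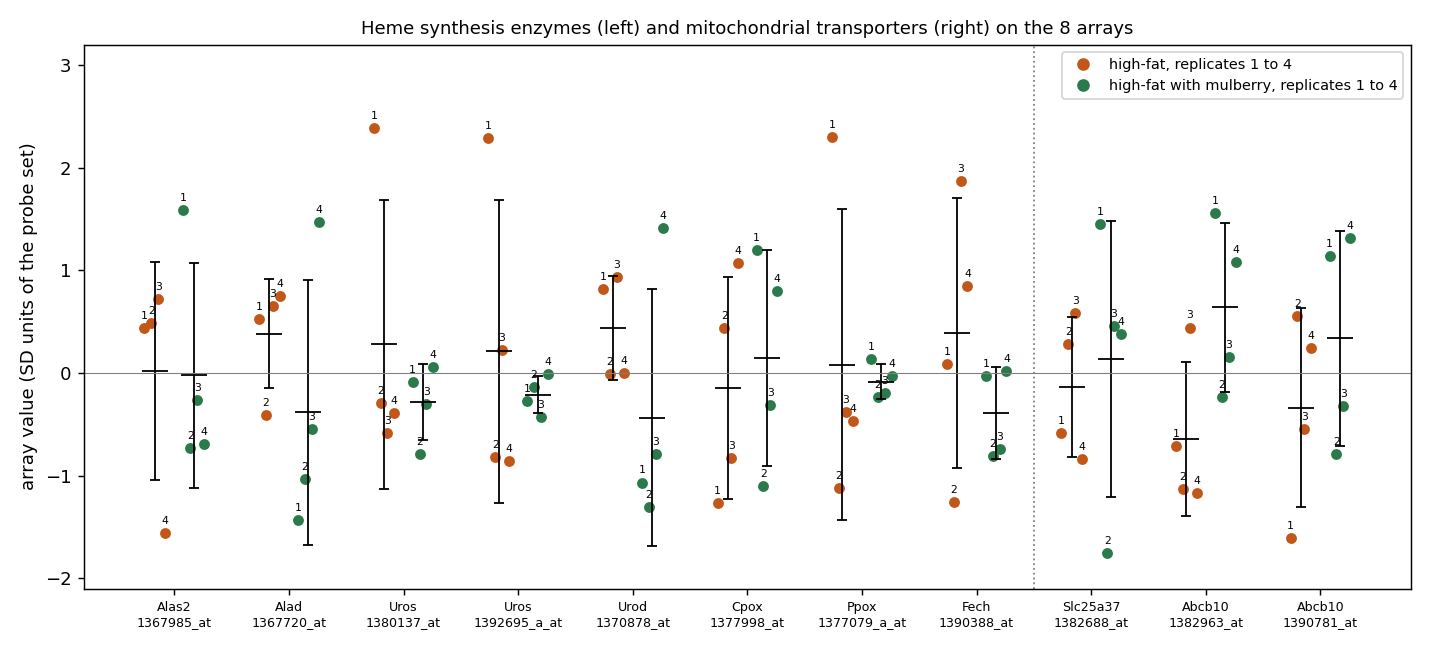
Array values of the 11 member probe sets in SD units (y axis), with enzymes left and mitochondrial carriers right of the dotted line. Points are arrays numbered by replicate, orange for high-fat and green for high-fat with mulberry, and black bars are the mean ± SD of 4 arrays. High-fat replicate 1 lies far above the other arrays for both Uros probe sets and Ppox (2.29 to 2.39), and mulberry replicate 4 lies highest for Alad and Urod.

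Alad and Urod were the pair of enzymes that varied together without resting on a single array. Over the 8 arrays r was 0.918 and rho 0.905 (exact permutation p = 0.00201 and 0.00456), and adjusted over the 36 pairs of members p was 0.0723 and 0.164, so the pair did not pass. The pair was picked out after the 36 values were seen. Without the 2 arrays farthest from the median of Alad, mulberry replicates 1 and 4, r was 0.86, and with the diet means removed it was 0.9. Leaving out any 1 array gave r from 0.876 to 0.963, with an adjusted p under the threshold only when high-fat replicate 4 was left out. With the hybridization controls regressed out r was 0.848, and after median centring it was 0.555. Quantile normalization left the diet differences of both genes at 0, and no r is given for the pair under it. Of all other probe sets, 0.0515% had an r to Alad as high as that of Urod, and 0.0773% had an r to Urod as high as that of Alad. The within-diet relation could not be given alone, since a diet has 4 arrays.

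**Figure D3:**
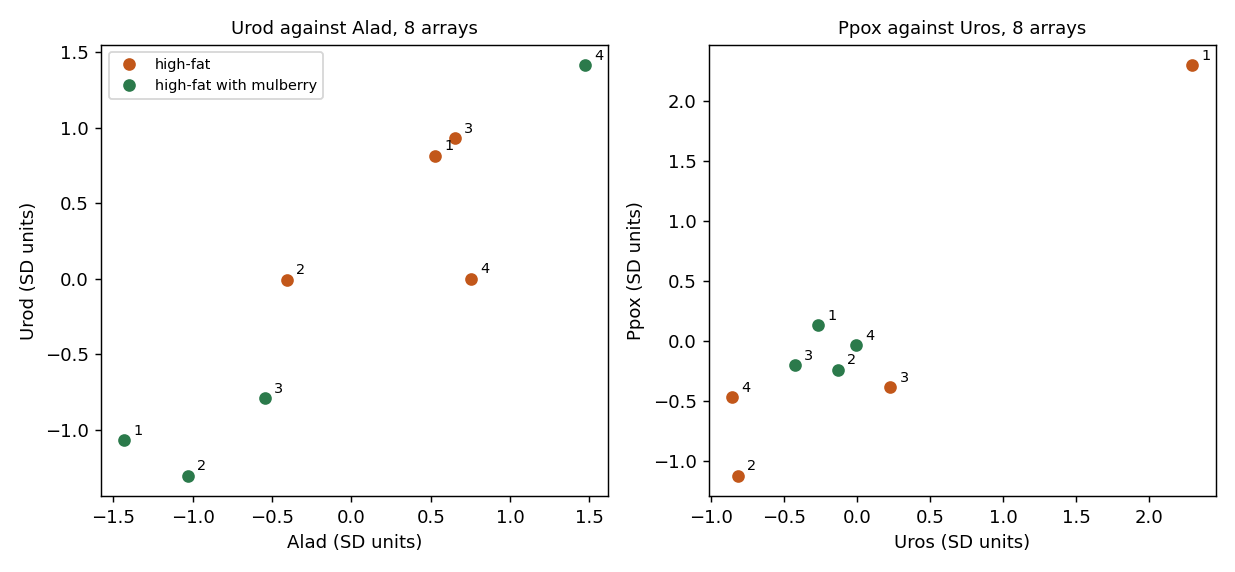
Array values in SD units of Urod against Alad (left) and Ppox against Uros (right, probe set 1392695_a_at), with points numbered by replicate, orange for high-fat and green for high-fat with mulberry. The Alad and Urod values spread along a line over all 8 arrays (r = 0.918), whereas the Uros and Ppox relation (r = 0.94) has high-fat replicate 1 far from the other 7 points.

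As this pair varied together, the 250 bases upstream of the annotated starts of Alad and Urod are shown, from RefSeq on build GRCr8, 5′ to 3′ on the gene's strand. Capitals mark the E-box letters CACGTG, a palindrome bound by factors such as USF and MYC. The Alad stretch is chr5:80987902-80988151 and the Urod stretch chr5:135705381-135705630, both on the minus strand.
Alad: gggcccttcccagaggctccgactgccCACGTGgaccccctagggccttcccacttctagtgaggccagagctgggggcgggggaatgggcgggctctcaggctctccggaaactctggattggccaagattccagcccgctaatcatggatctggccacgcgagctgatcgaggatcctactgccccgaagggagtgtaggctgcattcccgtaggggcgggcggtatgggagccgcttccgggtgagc
Urod: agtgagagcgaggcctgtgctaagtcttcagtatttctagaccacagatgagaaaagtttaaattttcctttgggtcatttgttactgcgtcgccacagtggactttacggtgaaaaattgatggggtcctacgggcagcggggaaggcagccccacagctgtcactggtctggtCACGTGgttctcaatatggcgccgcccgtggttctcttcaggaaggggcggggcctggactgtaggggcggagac

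Each of the stretches holds CACGTG once, and 5.59% of 33469 annotated promoter stretches of this length hold it on either strand. The GATA letters AGATAA, searched on both strands, were in neither, but once in that of Fech (10.3% of all). The letters CACCC, the core bound by KLF1, were once in Alad and not in Urod or Fech (49.2% of all), and TGACTCA of NF-E2 and AP-1 in none of the 3 (4.05% of all). A match describes letters and is not a site, and these motifs were chosen with the values known. RefSeq entries matched 7 of the 9 members, all but Cpox and Slc25a37. For Alas2, Uros, Ppox and Abcb10 the tabulated start lies inside the annotated gene, so the bases before it are not shown as promoters.

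Uros encodes uroporphyrinogen III synthase, which closes the tetrapyrrole ring, and Ppox encodes protoporphyrinogen oxidase of the mitochondrial membrane. The first Uros probe set (1392695_a_at, log2 level 6.53) read 2.29, -0.82, 0.226 and -0.858 on the high-fat arrays. It read -0.269, -0.135, -0.429 and -0.0095 with mulberry. A single array, high-fat replicate 1, set the high-fat mean, while the mulberry arrays lay close together. The levels of both Uros probe sets (6.53 and 6.07) and of Ppox (6.35) lay below the array medians of 6.57. They were near those of the liver gene Alb (6.07 and 6.53), so these are dim probe sets.

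The second Uros probe set (1380137_at, level 6.07) had the same replicate at 2.39, the other high-fat arrays at -0.29, -0.585 and -0.393, and the mulberry arrays at -0.0846, -0.792, -0.297 and 0.0559. Ppox (1377079_a_at, level 6.35) read 2.3, -1.12, -0.382 and -0.465 on the high-fat arrays, and 0.134, -0.236, -0.197 and -0.0321 with mulberry. For Ppox all 4 mulberry arrays lay above the high-fat median, although the mulberry mean was the lower one. By Dixon's gap test, high-fat replicate 1 stood apart for the second Uros probe set (gap over range 0.901, critical value 0.829). It did not pass for the first Uros probe set (0.656) or for Ppox (0.784). Over all probe sets, high-fat replicate 1 stood apart upward by that test in 0.419%.

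The diet differences were -0.422 ± 0.699 and -0.559 ± 0.685 for the Uros probe sets and -0.166 ± 0.715 for Ppox (limma adjusted p = 1 for each, exact permutation p = 0.829, 0.714 and 1). Without high-fat replicate 1 all 3 turned, to 0.675, 0.499 and 1.42. These are in units of the SD over the arrays left, which lacks that extreme array, so their sizes do not compare with those above. The Uros and Ppox values had r = 0.94 and rho = 0.619 (exact permutation p = 0.0124 and 0.115, adjusted p = 0.224 and 0.591 over 36 pairs). Without the 2 arrays farthest from the median of Uros, high-fat replicates 1 and 4, r was 0.599 and rho 0.143. It was 0.57 without high-fat replicate 1 alone and 0.95 without high-fat replicate 4 alone, so the high r rests on replicate 1. The 2 Uros probe sets had r = 0.882 with each other (rho 0.286, permutation p = 0.0756 and 0.501, adjusted p = 0.52 and 0.962 over the 55 pairs of member probe sets). Without high-fat replicates 1 and 4 r was -0.202, and without replicate 1 alone it was -0.118. Apart from high-fat replicate 1 they do not track each other.

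Cpox encodes coproporphyrinogen oxidase, which acts between the mitochondrial membranes, and Fech encodes ferrochelatase. Cpox (1377998_at, log2 level 7.20) read -1.26, 0.437, -0.823 and 1.07 on the high-fat arrays. It read 1.2, -1.1, -0.314 and 0.796 with mulberry. The values of the diets were interleaved (difference 0.288 ± 0.711, limma adjusted p = 1, exact permutation p = 0.657), and Cpox was the enzyme with a higher mean. It turned to -0.0906 without high-fat replicate 1 and to -0.0671 without mulberry replicate 1.

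Fech (1390388_at, level 13.04) read 0.0923, -1.26, 1.87 and 0.847 on the high-fat arrays. It read -0.027, -0.807, -0.737 and 0.0198 with mulberry. All 4 mulberry arrays lay below the high-fat median, but high-fat replicate 2 was the lowest of the 8. The difference was -0.776 ± 0.654 (limma adjusted p = 1, exact permutation p = 0.314), -1.42 without high-fat replicate 2 and 0.547 after median centring, below the median of 1.15 over all probe sets.

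Slc25a37, the mitoferrin 1 gene, was measured by 1382688_at at a log2 level of 8.18. It read -0.582, 0.285, 0.588 and -0.837 on the high-fat arrays. It read 1.45, -1.75, 0.459 and 0.383 with mulberry. The mulberry arrays held both the highest and the lowest value, and the difference was 0.273 ± 0.71 (limma adjusted p = 1, exact permutation p = 0.743). It turned to -0.707 after quantile normalization, -0.37 on adjusting for the hybridization controls and -0.655 on adjusting for the polyA ones.

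Abcb10, the ATP-binding cassette transporter of the inner mitochondrial membrane, gave the largest difference among the members in its probe set 1382963_at (log2 level 8.25). The high-fat arrays read -0.709, -1.13, 0.444 and -1.17. The mulberry arrays read 1.56, -0.233, 0.154 and 1.08. All 4 mulberry arrays lay above the high-fat median, but high-fat replicate 3 lay above mulberry replicates 2 and 3. The difference was 1.28 ± 0.524 (unadjusted p = 0.0457 and adjusted p = 1 in limma, exact permutation p = 0.0857). It kept its sign under the alternatives tried, from 0.522 after quantile normalization to 1.57 after median centring. Median centring gave 96.9% of all probe sets a higher mean, with a median of 1.15, so the sign under it shows little. Adjusted for the polyA controls the difference was 0.607. Those controls ran with this probe set over the 8 arrays (r = 0.811 and rho = 0.786, permutation p = 0.0151 and 0.0279, adjusted p = 0.34 and 0.314 over 45 relations). Without high-fat replicates 1 and 4, whose control values lay farthest from the median, r was 0.768. The second Abcb10 probe set (1390781_at, level 7.14) read -1.61, 0.557, -0.547 and 0.248, and then 1.14, -0.785, -0.32 and 1.31 with mulberry. Its difference was 0.674 ± 0.672 (limma adjusted p = 1, exact permutation p = 0.4) and -0.324 after quantile normalization. The 2 probe sets of the gene had r = 0.472 and rho = 0.381 (permutation p = 0.236 and 0.36, adjusted p = 0.864 and 0.962 over 55 pairs, r = 0.42 without the 2 most extreme arrays).

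Whether the members vary with Alas2 was asked over the 8 arrays with 1 probe set per gene, the one of highest mean. Of the 8 pairs with Alas2, 5 had a positive r, the median r was 0.11, and 0 passed after adjustment over the 8 (0 also at an unadjusted permutation p under 0.05 for r). The closest was Slc25a37, the iron importer, with r = 0.69 and rho = 0.786 (exact permutation p = 0.0602 and 0.0279, adjusted p = 0.482 and 0.223 over the 8). Without the 2 arrays farthest from the median of Alas2, high-fat replicate 4 and mulberry replicate 1, r was 0.417. With Alad the r was -0.437, and 0.133 without those 2 arrays. Over all 36 pairs of members 23 had a positive r, with a median of 0.143, and 0 passed after adjustment (3 at an unadjusted permutation p under 0.05 for r, Alad with Urod, Uros with Ppox and Uros with Cpox). Slc25a37 and this Abcb10 probe set, whose proteins work side by side, had r = 0.641 and rho = 0.762 (permutation p = 0.0869 and 0.0368, adjusted p = 0.625 and 0.441 over 36 pairs, r = 0.748 without mulberry replicate 2 and high-fat replicate 4).

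**Figure D4:**
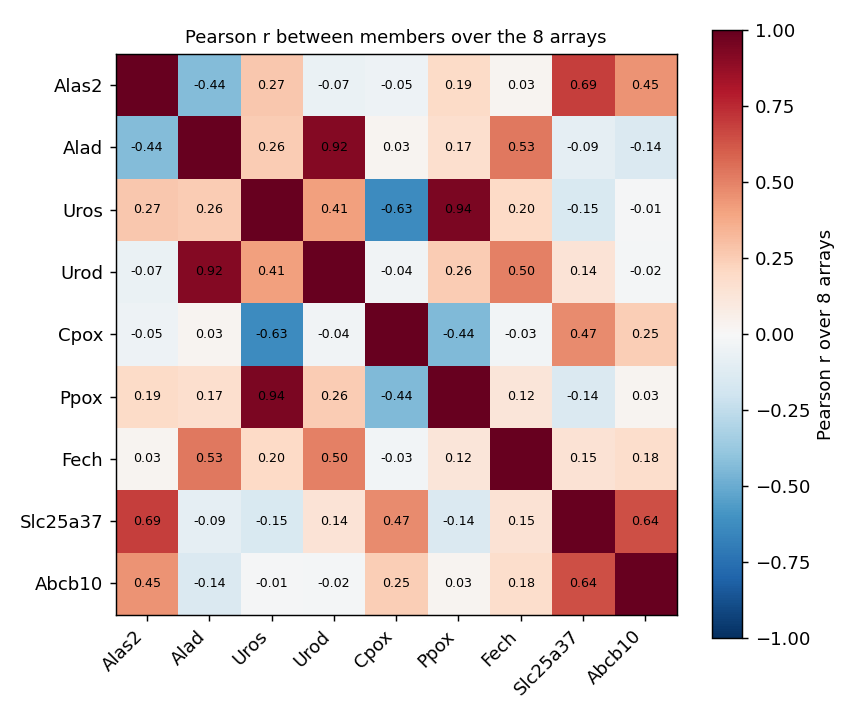
Pearson r over the 8 arrays between the 9 member genes, 1 probe set each, as a colour and a printed value. Alad with Urod (0.92) and Uros with Ppox (0.94) are the highest, and Alas2 ran from -0.44 with Alad to 0.69 with Slc25a37.

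The genes outside the members whose profiles were most like that of Alas2 were Pde4dip (r = 0.977), Wdr24 (0.949), Rap1gds1 (0.936), Ybx3 (0.932) and Kcnh8 (0.923), given as a description over 8 arrays. Pde4dip, which anchors proteins at the centrosome and Golgi, read 1.71 on mulberry replicate 1 and -1.21 on high-fat replicate 4, its highest and lowest arrays, as in Alas2. Rap1gds1, an exchange factor for small GTPases, read 0.909 and -1.48 there, and its highest array was high-fat replicate 3. Ybx3, a cold-shock domain protein that binds RNA and DNA, had a log2 level of 14.28. Their diet differences ran from -0.588 ± 1.8 (Rap1gds1) to 0.532 ± 0.792 (Ybx3).

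Around the members, 5 lists of related genes were read with the same limma fit, and 0 of their probe sets passed after adjustment. In the remaining heme genes and their partners 5 of 11 probe sets had a lower mean and 0 had an unadjusted p under 0.05. Tmem14c, which carries porphyrin within the mitochondrion, had a difference of -1.1 ± 0.581, which quantile normalization turned to 1.08 and median centring to 0.524, with the median of all at 1.15. Pgrmc1, a heme-binding partner of ferrochelatase, differed by -1.07 ± 0.59. In iron-sulfur cluster assembly 9 of 16 had a lower mean, while the 2 probe sets of Isca1, an assembly factor, lay on opposite sides (-1.14 ± 0.568 for 1388603_a_at and 0.636 ± 0.734 for 1388613_at). Bola3 had a higher one (0.932 ± 0.622). In heme export and breakdown 7 of 12 had a lower mean.

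Hmox2, the constitutive heme oxygenase, was the 1 of the 12 probe sets of that list whose arrays did not overlap between the diets. Over all probe sets 2.52% did not overlap. The Hmox2 difference was -1.29 ± 0.55 (limma adjusted p = 1, exact permutation p = 0.0286, the lowest p reachable). It was 0.707 after quantile normalization, and 1.13 after median centring, close to the median of 1.15 over all. The array medians subtracted varied more than this probe set did, so its centred value follows them. Flvcr2, a transporter related to the heme exporter FLVCR1, differed by 1.1 ± 0.586 and 0.5 ± 0.696 in its 2 probe sets.

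Genes of iron uptake, iron export and their regulation had a higher mean in 10 of 16 probe sets (median difference 0.638), and 8 of those 10 belonged to Slc40a1, Pcbp2 and Tfrc. Over all probe sets 52.7% were higher, with a median of 0.0559. After quantile normalization 4 of the 16 were higher and 7 lower, with a median of 0, against 28.2% higher over all. With 1 probe set for each of the 10 genes, the mean difference was 0.153. An unadjusted p under 0.05 was found for 3 of the 16, against 4.36% of all probe sets. All 3 measure the same gene, Slc40a1, which encodes the iron exporter ferroportin. The Slc40a1 probe set 1387130_at (log2 level 8.83) read -1, -0.525, -0.462 and -1.26 on the high-fat arrays. It read 0.587, 0.589, 0.292 and 1.78 with mulberry. Every mulberry array lay above every high-fat array, and the difference was 1.62 ± 0.358 (unadjusted p = 0.0029 and adjusted p = 1 in limma, exact permutation p = 0.0286, the lowest p reachable with these group sizes). The other 2 probe sets of Slc40a1, shown after the first was seen, differed by 1.57 ± 0.393 (1390412_at, no overlap) and 1.41 ± 0.471 (1376972_at, which overlapped). In this list 2 of the 16 probe sets did not overlap, against 2.52% of all probe sets. After median centring the 3 Slc40a1 differences were 1.7, 1.59 and 1.5, against a median of 1.15 over all probe sets. After quantile normalization the first and second were 0 and the last 1.23. High-fat replicate 4 was the lowest and mulberry replicate 4 the highest of the 8 arrays in all 3 probe sets, as in the platelet marker score (-1.45 and 1.61), and the part of platelets in these values was not tested. Pcbp2, an iron chaperone and RNA-binding protein, had differences of 1.03 ± 0.599, 0.651 ± 0.682 and 0.553 ± 0.714 in its 3 probe sets.

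The erythroid transcription factors and the erythropoietin receptor had a higher mean in 10 of 15 probe sets and a lower one in 5, down to -1.07. Over all probe sets 52.7% were higher. Gfi1b, a transcriptional repressor that red cell and platelet development require, differed by 1.3 ± 0.516 (unadjusted p = 0.0409, limma adjusted p = 1, exact permutation p = 0.0857). Tal1, a factor of the same lineages, differed by 1.25 ± 0.536 in probe set 1389342_at (exact permutation p = 0.0286, limma adjusted p = 1) and by 0.0721 ± 0.727 in 1394720_at (exact permutation p = 0.829). After quantile normalization Gfi1b and Tal1 1389342_at were both at 0. After median centring they were at 1.51 and 1.61, against a median of 1.15 over all probe sets. Adjusted for the polyA controls they were at 1.35 and 0.766. The platelet markers, all 14 of them higher with mulberry on the deposited scale, had a score between -1.45 and 0.172 on the high-fat and between -0.383 and 1.61 on the mulberry arrays. Their part in the values of these factors was not tested. Of the 6 hemoglobin probe sets 3 had a lower mean and 3 a higher one. Hbb, among the lower ones, had an SD of only 5.18e-09. Its difference was -0.483 ± 129, so its direction cannot be read. Of the 31 red cell marker probe sets 14 had a lower and 17 a higher mean.

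**Figure D5:**
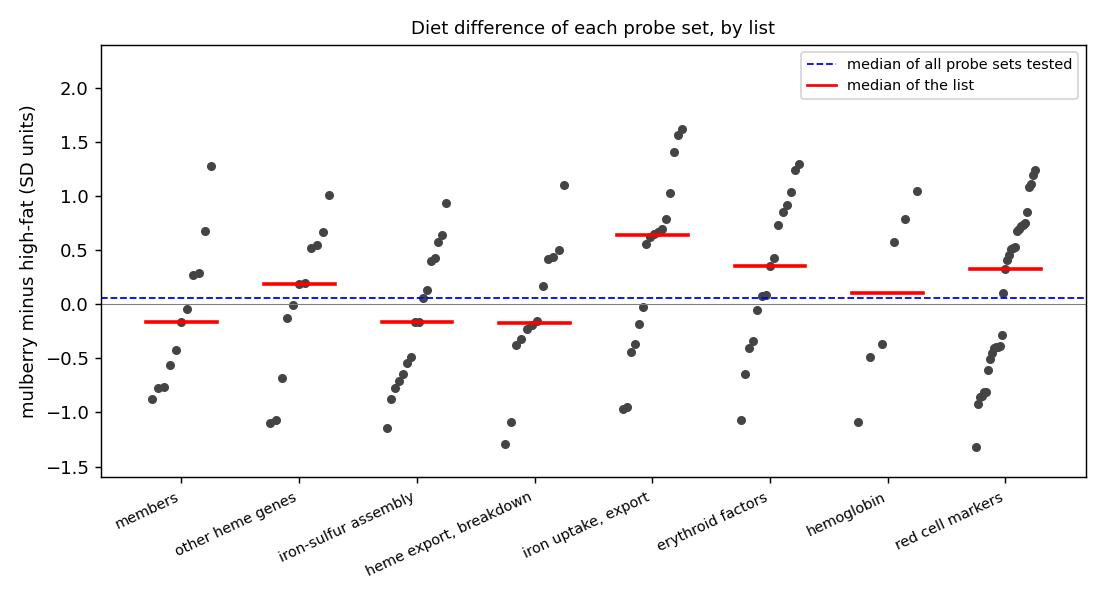
Mulberry minus high-fat difference in SD units of every probe set (points) of the members and of 7 related lists, with the median of each list (red line) and of all probe sets tested (dashed line, 0.0559). The members have a median of -0.166 and the iron uptake and export genes one of 0.638, and both medians were 0 after quantile normalization. The points of every list lie on both sides of 0, on the deposited scale.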

How the data were processed

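Blood RNA (200 ng) was labelled with the GeneChip 3' IVT Express kit, per the labels' protocols. The deposited table holds log2 probe set summaries, a scale read from the values. How the authors summarised and normalized probes is not given in the sources used here. Of 31099 probe sets, 57 manufacturer controls were left out, and no other filter was applied. Gene names came from the platform annotation, updated by gene number through RefSeq (GRCr8): 20826 tested probe sets named 1 gene (20758 matched), 436 several and 9780 none.

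All probe sets were fitted with limma 3.58.1 in R 4.3.3 (lmFit, eBayes, two-sided, without covariates). Adjustment was by Benjamini-Hochberg over 31042 probe sets at a threshold of 0.05. SE values are limma's moderated ones divided by the SD of the probe set. Exact permutation tests used the 70 assignments of 4 of 8 arrays (two-sided, smallest p 0.0286). Relations used exact permutation of the 8 arrays (two-sided). Python 3.11.15, numpy 2.4.6 and scipy 1.17.1 were used. The 4 arrays per diet limit precision. Named genes were all members, the 2 related genes of smallest unadjusted p in each list, and the 5 most like Alas2. Members and lists were chosen with earlier results of these data known. On 31042 simulated probe sets, shifts of 4 within-group SDs, not the SD units of the report, were called in 32% of cases and shifts of 8 in 100%, along with 14 unshifted probe sets. Alternatives covered normalization, centring, a filter on dim probe sets, control and red cell scores as covariates, the replicate block and leaving out each array.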

Additional observations from a re-analysis of the deposited data

Results flagged for a closer look

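In each diet the array farthest from the other 3 was checked by Dixon's gap test, the gap to its nearest neighbour over the range of the 4 arrays, against a critical value of 0.829. Of 84 groups checked over the members, the related genes named and the scores, 8 passed. Chance passes about 1 in 20 groups, or 4.2 here. Among the members themselves it was 2 of 22 groups.

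High-fat replicate 4 was far below the other high-fat arrays for Alas2 (gap over range 0.873). The same array was low for 3 genes chosen for being like Alas2, namely Pde4dip (0.885), Rap1gds1 (0.906) and Ybx3 (0.846), which therefore add nothing independent. It was high for the natural killer marker score (0.856). Mulberry replicate 1 was far above its group for Pde4dip (0.918). High-fat replicate 1 was far above its group for the Uros probe set 1380137_at (0.901). Mulberry replicate 4 was far above its group for the Slc40a1 probe set 1390412_at (0.871).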

How the results depend on the processing

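No probe set passed the adjusted threshold under any setting tried except quantile normalization, which called 12 of all probe sets and no member, and left 8460 at a difference of 0. It gave 3 enzyme probe sets a lower mean and 1 carrier probe set a higher one, with Slc25a37 at -0.707, Abcb10 (1390781_at) at -0.324, Tmem14c at 1.08 and Hmox2 at 0.707. Alas2 then had a single value on all arrays, so its relations could not be computed. No r is given for Alad with Urod under that setting either. Median centring, which moved the median of all probe sets from 0.0559 to 1.15, gave lower means to 3 members and 3 enzyme probe sets, with a member median of 0.547, Alas2 at 1.17, Alad at 0.322, Ppox at 0.242, Fech at 0.547, Tmem14c at 0.524 and Hmox2 at 1.13. It had 2492 probe sets at an unadjusted p under 0.05 against 1352 on the deposited scale. The array medians ran from 6.56723 to 6.56732, far wider than the median SD of 5.31e-06. Subtracting them therefore gave most probe sets much the same pattern, and 96.9% of all had a higher mean with mulberry. Among probe sets brighter than the median, 4 of 8 members had a lower mean, against 50.7% of all such probe sets. All 4 were among the 5 enzyme probe sets left, since both Uros probe sets and Ppox were dimmer. Adjusting for hybridization controls gave 4 members and 3 enzyme probe sets a lower mean, with Alad at 0.322, Uros at 0.301 and 0.396, Ppox at 0.802 and Slc25a37 at -0.37. Adjusting for polyA controls left 1 carrier probe set higher, with Cpox at -0.196, Ppox at 0.419, Slc25a37 at -0.655 and Abcb10 (1390781_at) at -0.119. With the red cell score Alas2 was at 0.0324. The cause of the shifts under the other settings was not tested. Leaving out 1 array at a time gave 4 to 9 members and 4 to 8 enzyme probe sets with a lower mean. Over these fits, each in units of the SD over the arrays left, Alas2 ran from -0.703 to 0.185 and Cpox from -0.0906 to 0.729. Uros ran from -0.807 to 0.499 and from -0.768 to 0.675, Ppox from -0.587 to 1.42 and Slc25a37 from -0.19 to 1.18. With the replicate block 0 probe sets passed and 1728 had an unadjusted p under 0.05. Arrays of the same number share only a number (correlations of deviations -0.0462, -0.0505, 0.246 and 0.163), and only those of replicates 3 and 4 correlated best with their own number. The spread between arrays in the deposited values, 5.31e-06 at the median, limits every value given.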

Other observations

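The Cpox probe set and the second Abcb10 probe set (1390781_at) varied together over the 8 arrays, with r = 0.91 and rho = 0.881 (exact permutation p = 0.0029 and 0.00724, adjusted p = 0.0798 and 0.199 over all 55 pairs of member probe sets, so the pair did not pass). It was picked after the values were seen. Without high-fat replicate 1 and mulberry replicate 2, the arrays farthest from the Cpox median, r was 0.832. The brighter Abcb10 probe set had r = 0.472 with this one, so the probe sets of Abcb10 do not give 1 pattern.

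Uros (1392695_a_at) varied with the red cell marker score, with r = 0.846 and rho = 0.81 (exact permutation p = 0.00166 and 0.0218, adjusted p = 0.0748 and 0.314 over 45 relations). Without high-fat replicates 1 and 4 r was 0.692. Alas2 had no such relation among those that reached an unadjusted p under 0.05.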
